A study of Rattus norvegicus with 6 samples.

Results

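Translation initiation and elongation factors were described in cultured neural progenitors of the rat. The members were all gene names in the deposited tables that begin with Eif or Eef followed by a digit, which gave 61 of 17337 gene names. The rule reads names only and uses no measured value. It takes in the factors themselves, their inhibitors and kinases, and a few genes named after them. The progenitors came from cortices of Sprague Dawley rat embryos of either sex at embryonic day 14, were grown with the mitogens bFGF and EGF, and were collected after the second passage. Sequencing of polyA-selected mRNA covered biological replicates A and B (n = 2), and the 2 technical libraries of each are called A1 and A2 or B1 and B2 here. There was 1 condition, with no treatment and no altered genotype, so each comparison below is between genes or between the 2 biological replicates. The 2 Start-seq samples of the series were not analysed here.

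Translation of most mRNAs begins when the eIF4 complex binds the cap and brings in a small ribosomal subunit that carries eIF1, eIF1A, eIF3, eIF5 and the initiator tRNA held by eIF2. Start codon recognition spends the GTP on eIF2, eIF2B reloads it, and the eIF2 kinases and the 4E-binding proteins slow the cycle in stress or when nutrients are short. In elongation, eEF1A delivers aminoacyl-tRNA, the eEF1B subunits recharge eEF1A, and eEF2 moves the ribosome along the codons. Many mRNAs of the elongation factors, some of eIF3 and nearly all of ribosomal proteins begin with a 5′ terminal oligopyrimidine (TOP) tract, through which mTOR signalling controls their translation.

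Levels are given in FPKM, fragments scaled to transcript length and library depth, so that genes of unlike length can be set side by side. FPKM does not add up to the same total in every library. The totals were 570128, 601337, 611912 and 601033 in A1, A2, B1 and B2, so small differences between libraries depend on the scaling. Technical libraries were averaged, and a mean ± SD is over the 2 biological replicates (n = 2). Differences between B and A are on the scale of log2(FPKM + 1), so those of low genes are understated. With 1 condition and 2 biological replicates no test was run and no p-value is given. A gene is said to differ without overlap when both libraries of a replicate lie above both libraries of the other. The series calls the libraries of a replicate technical, so they were not counted as independent samples.

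The depth, as the mean read coverage per FPKM, was 24.3, 22.7 and 24.4 in A1, A2 and B1 but 6.83 in B2, or 28.1% of B1. B1 and B2 also stood apart in level, with a median absolute log2 difference of 0.22 over all genes above 1 FPKM, against 0.11 between A1 and A2 and 0.24 to 0.31 between a library of A and a library of B. Ptgds had 8.18 FPKM in B1 and 292 FPKM in B2, and Olig1 had 523 and 237 FPKM. The lowest coverage of any member in any library was 19.6, for Eef1a2 in B2. The neural progenitor markers Sox2, Nes, Pax6, Vim, Fabp7, Hes1, Hes5 and Notch1 were all above 1 FPKM, with means from 33.9 to 11841 FPKM, so the markers of the labelled cell type were present. Markers of microglia, endothelium and erythroid cells were all below 1 FPKM on average. The replicates did not have the same marker levels. All 8 mesenchymal or meningeal markers were higher in B without overlap, with a sum of 646, 626, 2438 and 3220 FPKM in A1, A2, B1 and B2. Of the neural progenitor markers 5 of 8 were lower in B without overlap, and of the 7 neuron markers above 1 FPKM 5 were. Of all genes above 1 FPKM, 32.0% were lower in B without overlap and 28.1% were higher. The progenitor markers Nes, Vim and Pax6 overlapped, and the means of Nes and Vim were higher in B. These marker levels differed between the same replicates as the members below, and their part in the differences was not tested. In bulk RNA, fewer cells of a type and less RNA per cell cannot be told apart.

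All 61 members were above 1 FPKM, against 10481 (60.5%) of all gene names. At 10 FPKM there were 53 members (86.9%), against 38.3% of all names, and at 100 FPKM 24 members (39.3%), against 6.14%. The median level was 66.4 FPKM over the members and 3.83 FPKM over all names. The members spanned 747-fold, from Eif4e3, a cap-binding protein of the eIF4E family, at 3.54 ± 1.47 FPKM to Eef1a1, the carrier of aminoacyl-tRNA, at 2648 ± 807 FPKM. Together they made up 1.497% and 1.525% of the summed FPKM in A1 and A2 and 1.838% and 1.716% in B1 and B2. The sum was thus higher in both libraries of B.

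**Figure D1:**
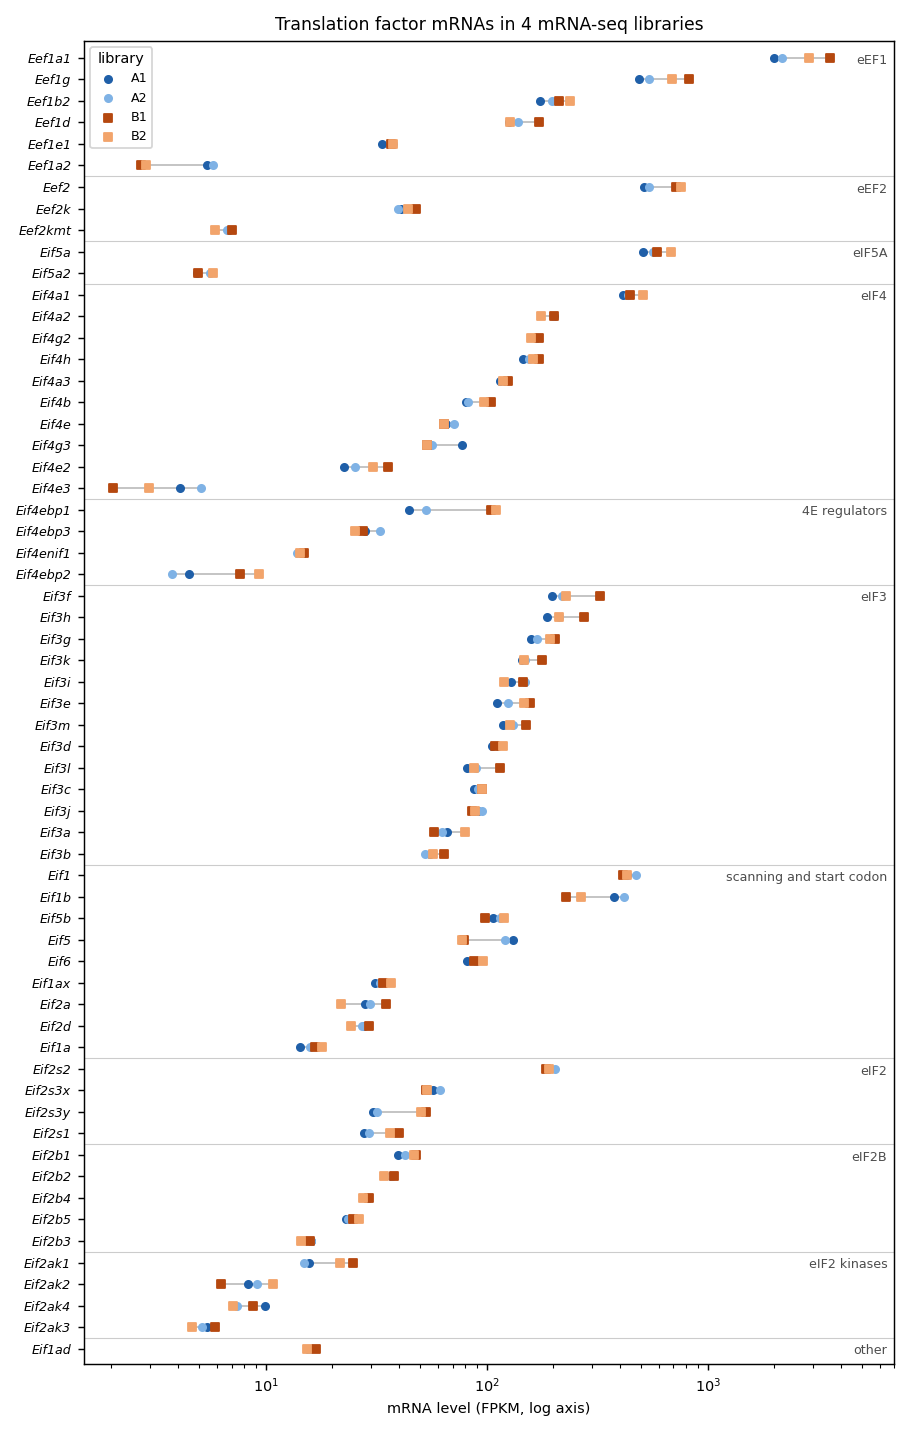
FPKM on a log axis of each of the 61 members in the 4 libraries, with blue circles for A1 and A2, orange squares for B1 and B2 and a grey line from the lowest to the highest library, grouped by role and ordered by mean level. Levels run from about those of Eif4e3 (mean 3.54 FPKM) to those of Eef1a1 (mean 2648 FPKM), and most members vary far less between libraries than they differ from each other.

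The elongation factors held the most abundant members. Eef1a1 had 1987, 2168, 3575 and 2862 FPKM in A1, A2, B1 and B2 and stood at rank 10 of all gene names by mean level. Eef1g, the gamma subunit of the eEF1B exchange factor, had 489.9, 539.9, 820.0 and 691 FPKM, and Eef2, the translocase, had 515, 542, 720.4 and 753 FPKM in the same order of libraries. In all 3 genes both libraries of B lay above both libraries of A. The B minus A difference was 0.63 for Eef1a1, 0.55 for Eef1g and 0.48 for Eef2. The value of Eef1a1 was 0.78 without B2 and 0.46 without B1.

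The other eEF1B subunits were lower. Eef1b2, the catalytic beta subunit, had 174, 198, 211 and 237 FPKM, higher in B without overlap. Eef1d, the delta subunit, had 126, 139, 172 and 127 FPKM, and its replicates overlapped with B2 between A1 and A2. Eef1e1, which encodes a scaffold protein of the multi-tRNA synthetase complex and is named for its likeness to eEF1, had 33.5, 37.8, 36.7 and 37.6 FPKM, also with overlap. Eef2k, the kinase that inactivates eEF2, had 40.7, 39.8, 47.9 and 43.8 FPKM and was higher in B without overlap by 0.18. Eef2kmt, a methyltransferase of eEF2, was low at 6.61 ± 0.204 FPKM and overlapped between replicates. It shares 498 bases with Alg1 on the opposite strand, and whether the libraries kept the strand is not given in the sources used here.

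Eef1a2 encodes the eEF1A form of adult neurons and muscle. It had 5.42, 5.76, 2.72 and 2.87 FPKM in A1, A2, B1 and B2, so that both libraries of B were lower, by a difference of -0.80. The ratio of Eef1a1 to Eef1a2 was 367 and 376 in A1 and A2 and 1317 and 998 in B1 and B2. Eef1a1 therefore exceeded its paralogue by a log2 ratio of 9.35 ± 1.15 (n = 2), and made up 99.8% of the FPKM of both. Of the 9 neuron markers, Dcx, Map2, Syt1, Snap25 and Rbfox3 were lower in B without overlap, Tubb3 and Stmn2 overlapped, and Neurod1 and Neurod6 were below 1 FPKM. Their summed level was 167 and 191 FPKM in A1 and A2 and 146 and 165 FPKM in B1 and B2, and their part in the lower Eef1a2 was not tested.

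Sequences around annotated starts are shown for TOP mRNAs and for paralogues whose levels differed, since the TOP tract is read from the first bases of the mRNA. They are from RefSeq (GRCr8), on the strand of the gene, and run from 20 bases before the start through the first 20 transcribed bases. Capitals mark the longest run of C and T. The first are TOP members.
Eef1a1 (chr8:88225050-88225089, minus strand): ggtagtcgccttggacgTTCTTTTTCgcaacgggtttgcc
Eef1b2 (chr9:72074071-72074110, plus strand): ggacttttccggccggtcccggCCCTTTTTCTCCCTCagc
Eif3f (chr1:172369042-172369081, plus strand): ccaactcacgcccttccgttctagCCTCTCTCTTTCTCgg
Eef1g (chr1:215289795-215289834, plus strand): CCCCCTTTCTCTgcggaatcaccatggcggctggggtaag
Eef2 (chr7:9189219-9189258, minus strand): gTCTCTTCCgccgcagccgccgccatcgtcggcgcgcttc
Eif3a (chr1:269919006-269919045, minus strand): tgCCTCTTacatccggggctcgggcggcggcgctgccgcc
The others are not on the TOP list. Eef1a2, Eif1 and Eif1b are shown as paralogues, and Eif2a, Eif2s3x and Eif3m for long runs at or near the start.
Eef1a2 (chr3:188652614-188652653, minus strand): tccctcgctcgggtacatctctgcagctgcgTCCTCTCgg
Eif1 (chr10:85747117-85747156, plus strand): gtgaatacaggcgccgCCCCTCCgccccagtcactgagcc
Eif1b (chr8:129081138-129081177, plus strand): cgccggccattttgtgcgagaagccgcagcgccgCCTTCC
Eif2a (chr2:144911340-144911379, plus strand): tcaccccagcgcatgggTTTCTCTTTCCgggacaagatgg
Eif2s3x (chrX:62933680-62933719, minus strand): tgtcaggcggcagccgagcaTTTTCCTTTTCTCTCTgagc
Eif3m (chr3:111897174-111897213, minus strand): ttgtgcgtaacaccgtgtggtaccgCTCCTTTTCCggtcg

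The run lay close after the start in Eef1b2 and Eif3f, across it in Eef1a1, and wholly before it in Eef1g, Eef2 and Eif3a, so 3 of the 6 TOP members shown had it before the start. Runs at or near the start were not limited to TOP members, since Eif2s3x had the longest run shown and Eif2a was the only member with the motif at the start itself. The table held windows for 55 members and none for Eif4e3, Eif4b, Eif3e, Eif3h, Eif4ebp1 and Eef1d. A run of at least 8 C or T within the window was present in 5 of the 6 TOP members with a window and in 14 of the 58 windows of members (24.1%), against 15.5% of 33469 promoters. A C followed by at least 4 C or T that begins within 5 bases of the annotated start was found in 3 of the 6 TOP members, in 14 member windows (24.1%) and in 17.04% of all promoters. With the C at the start itself the shares were 0 of 6, 1 of 58 and 2.63%. Only the strand of the gene was searched and the 2 motifs may overlap. These matches describe annotated starts, not the starts used in these cultures.

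The TOP list held 10 members, Eef1a1, Eef1b2, Eef1d, Eef1g, Eef2, Eif3a, Eif3e, Eif3f, Eif3h and Eif4b. Their summed level was 3934, 4287, 6418 and 5434 FPKM in A1, A2, B1 and B2, a ratio of B to A of 1.44. The other 51 members summed to 4599, 4884, 4830 and 4879 FPKM, a ratio of 1.02. The net gain of the sum in B thus lay almost wholly in the TOP members, and within these Eef1a1 alone held the greatest share. The other 51 members moved in both directions, with 17 higher in B without overlap and 10 higher in A. Eif5a had 537 and 635 FPKM in A and B, and Eif1b had 396 and 248 FPKM. Of the TOP members 7 of 10 were higher in B without overlap and 0 were higher in A. Over all genes above 1 FPKM, 28.1% were higher in B without overlap and 32.0% were higher in A. Over all 61 members the counts were 24 (39.3%) and 10 (16.4%). Without B2 the TOP count was 9 in B and 1 (Eif3a) in A. Over all members 40 were higher in B and 15 in A without B2, where 40.3% and 43.8% of all genes were. Without B1, 8 TOP members were higher in B and 0 in A, and of the other members 22 and 21. The shares of all genes were then 40.7% in B and 47.4% in A.

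The median difference was 0.33 over the TOP members, 0.03 over the other members and -0.03 over all genes above 1 FPKM. The TOP members ranged from 0.08 for Eif3a to 0.63 for Eef1a1. Taken library by library, the TOP median was 0.49 for B1 against A1, 0.36 for B1 against A2, 0.34 for B2 against A1 and 0.25 for B2 against A2. All 4 were above 0, and B1 gave the higher pair of values. Eif4b, an RNA-binding cofactor of the eIF4A helicase, had 80.3, 82.3, 104 and 97.4 FPKM and was higher in B without overlap by 0.31. Eif3e, a scaffold subunit of eIF3, had 111, 125, 156 and 147 FPKM and differed by 0.36, also without overlap. The 81 ribosomal protein genes above 1 FPKM, which are the largest group of TOP mRNAs, had a median difference of 0.33. Of these, 63 were higher in B without overlap and 0 were higher in A, or 64 and 3 without B1. Library by library their median was 0.51 and 0.33 for B1 against A1 and A2, and 0.34 and 0.15 for B2. The sum of the ribosomal list also differed within A, with 80881, 93353, 116338 and 103380 FPKM in A1, A2, B1 and B2.

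**Figure D2:**
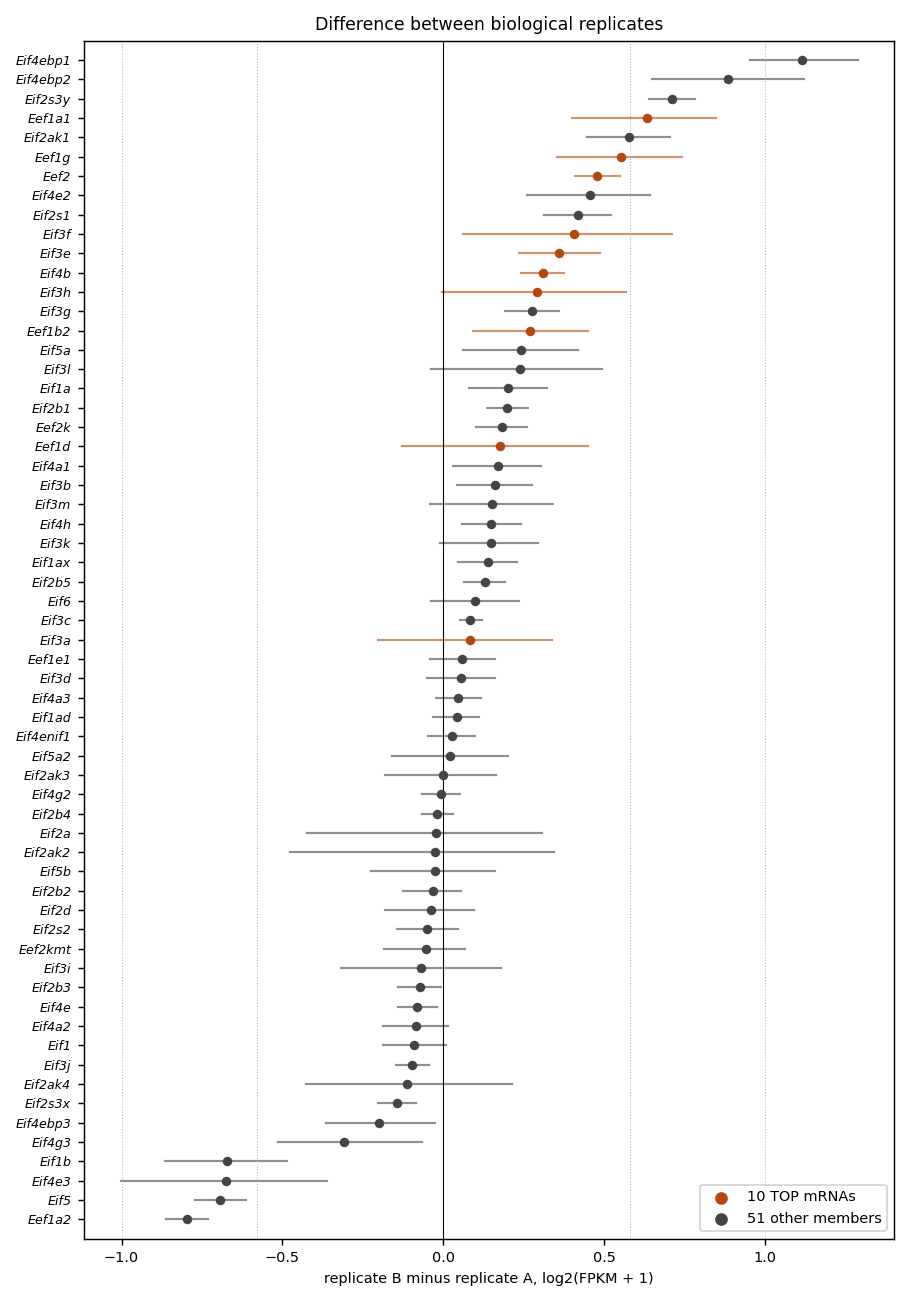
Difference between replicate B and replicate A for each of the 61 members, on the log2(FPKM + 1) scale. Points are differences of the replicate means, lines run from the lowest to the highest of the 4 pairs of a B and an A library, orange marks the 10 TOP mRNAs, and dotted lines mark 0.58 and 1 in each direction. Eif4ebp1 is the only point beyond 1, and all 10 TOP points lie to the right of 0, of which 3 have lines that reach 0 or cross it.

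The eIF3 complex, which coats the small subunit and recruits it to mRNA, had 13 members with means from 57.2 FPKM (Eif3b) to 242 FPKM (Eif3f), a range of 4.23-fold. Eif3f had 198, 218, 325 and 228 FPKM in A1, A2, B1 and B2. Its difference of 0.41 rested on B1, the highest library, and was 0.13 without it. Eif3h, a core subunit like Eif3f, had 186, 213, 277 and 212 FPKM, and B2 lay just below A2. Eif3a, the largest subunit, had 66.3, 62.7, 57.4 and 79.4 FPKM, with B1 the lowest library and B2 the highest. Eif3b, an RNA-binding subunit, had 55.5, 52.5, 63.8 and 57.1 FPKM, a narrow spread with B above A. Across the complex 5 members were higher in B without overlap, 1 (Eif3j) was higher in A and 7 overlapped, beside 28.1% of all genes higher in B and 32.0% higher in A. The count in B was 4 in TPM (25.0% of all genes), 9 with median-ratio scaling (30.0%), 10 without A2 (35.2%), 7 without B1 (40.7%) and 9 without B2 (40.3%). The median difference was 0.20 over the 8 core subunits with PCI or MPN domains and 0.05 over the other 5, but 0.09 and 0.08 without B1. Eif3k shares bases on the same strand with the annotated spans of Kcnk6 (0.950 FPKM) and Zfp74 (4.32 FPKM), both far below its own 154 ± 11.2 FPKM, and on the opposite strand with Yif1b (47.3 FPKM).

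The cap-binding eIF4 group spanned 127-fold. Eif4a1, the main helicase, had 412, 435, 444 and 509 FPKM, and Eif4a2, its close paralogue, had 201, 199, 201 and 176 FPKM. Eif4a3, which acts in the exon junction complex rather than in initiation, had 115, 121, 124 and 119 FPKM. The order Eif4a1, Eif4a2, Eif4a3 held in all 4 libraries. The ratio of Eif4a1 to Eif4a2 was 2.05, 2.19, 2.21 and 2.89 in A1, A2, B1 and B2, and the value of B2 stood above the rest. Among the scaffolds, Eif4g2, a relative that lacks the cap-binding site, had a mean of 166 ± 0.493 FPKM and Eif4g3 had 76.9, 56.4, 53.8 and 53.5 FPKM, of which A1 was the highest. Eif4g1 is not among the names analysed here. Eif4h, another cofactor of the helicase, was at 159 ± 11.6 FPKM and was higher in B without overlap by 0.15.

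The cap-binding proteins stood in the same order in all 4 libraries. Eif4e, the main one, had 65.3, 70.8, 64.4 and 64.1 FPKM, Eif4e2, a repressive form, had 22.6, 25.3, 35.9 and 30.5 FPKM, and Eif4e3 had 4.10, 5.07, 2.03 and 2.97 FPKM. Eif4e2 was higher in B without overlap (0.45). The difference of Eif4e (-0.08) was within the spread of technical libraries, and its libraries overlapped under median-ratio scaling. The ratio of Eif4e to Eif4e2 was therefore 2.89 and 2.80 in A1 and A2 and 1.79 and 2.11 in B1 and B2. The ratio of Eif4e to Eif4e3 was 15.9, 14.0, 31.7 and 21.6 in the same order, higher in both libraries of B.

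The 4E-binding proteins block eIF4E until mTOR phosphorylates them. Eif4ebp1 (chr16, minus strand, rn6) had 44.6, 53.3, 104 and 110.2 FPKM in A1, A2, B1 and B2. Both libraries of B lay above both of A, with a ratio of 2.19 and a difference of 1.11. Eif4ebp2, the form known from adult brain, had 4.49, 3.75, 7.61 and 9.32 FPKM and a difference of 0.89, again without overlap. Eif4ebp3 had 28.2, 32.97, 27.7 and 25.4 FPKM, slightly higher in A without overlap. The ratio of Eif4ebp2 to Eif4ebp1 was 0.101, 0.0703, 0.0730 and 0.0845, with overlap between the replicates, while the ratio of Eif4ebp2 to Eif4ebp3 was 0.160 and 0.114 in A and 0.275 and 0.367 in B. Eif4enif1, which carries eIF4E into the nucleus, had 14.8, 13.8, 14.9 and 14.3 FPKM and overlapped.

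A rule of 2-fold asked for a difference of at least 1 on log2(FPKM + 1), without overlap and above 1 FPKM. It called 1 member, Eif4ebp1, as higher in B and 0 as higher in A. Over all genes above 1 FPKM it called 4.78% as higher in B and 1.42% as higher in A. In plain FPKM the ratio of B to A was also beyond 2-fold, without overlap, for Eif4ebp2 (2.05) and Eef1a2 (0.4995). Eif4ebp1 was at 0.99 without A1, just under the threshold, and Eif4ebp2 was just over it without B1, at 1.01. At 1.5-fold (0.58) the members higher in B were Eef1a1, Eif4ebp1, Eif2s3y and Eif4ebp2, 6.56% of members against 9.51% of all genes. Those higher in A were Eif1b, Eif5, Eef1a2 and Eif4e3, also 6.56%, against 6.95%. Neither share was above that of all genes. Eef1a1 was under 0.58 without A1 (0.57) or without B1 (0.46). Eif1b was also short of the threshold without B1 (-0.56), and Eif4e3 without B1 (-0.49) or A2 (-0.54). The count in B was 7 without B2, which added Eef1g, Eif3f and Eif2ak1, or 11.5% of members against 8.44% of all genes at that setting. It was 3 without B1, or 4.92% against 12.9%.

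Among the 9 factors of scanning and start codon choice 2 (Eif1b and Eif5) were higher in A without overlap and 2 (Eif1ax and Eif1a) were higher in B, or 22.2% each way, against 28.1% of all genes higher in B and 32.0% higher in A. The counts were 4 and 4 without B1 or without B2, where 40.7% and 40.3% of all genes were higher in B and 47.4% and 43.8% in A. Eif1, which guards start codon accuracy, had 431, 471, 414 and 433 FPKM and overlapped between replicates. Eif1b, its near-identical paralogue, had 376, 416, 228 and 268 FPKM, lower in both libraries of B by a difference of -0.67. The ratio of Eif1 to Eif1b was 1.14 and 1.13 in A1 and A2 and 1.82 and 1.61 in B1 and B2. Eif5, the GTPase-activating protein of eIF2, had 132, 121, 78.7 and 77.1 FPKM and a difference of -0.69. Its technical libraries lay close together within each replicate.

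Eif1ax had 31.2, 32.9, 34.01 and 36.8 FPKM and Eif1a had 14.2, 15.8, 16.8 and 18.0022 FPKM, both forms of eIF1A and both higher in B without overlap (0.14 and 0.20), with a ratio between 2.03 and 2.20 in every library. Eif5b, the GTPase that joins the subunits, and Eif6, which keeps them apart, had means of 109.8 ± 1.43 and 88.6 ± 4.35 FPKM, and each overlapped between replicates. Eif2a and Eif2d, which can bring in initiator tRNA without eIF2, were at 28.7 ± 0.319 and 27.2 ± 0.532 FPKM. Eif2a also had a wide technical spread, with 35.1 FPKM in B1 and 21.8 FPKM in B2. Eif1ad, named for an eIF1A-like domain, was at 15.8 ± 0.338 FPKM and overlapped.

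**Figure D3:**
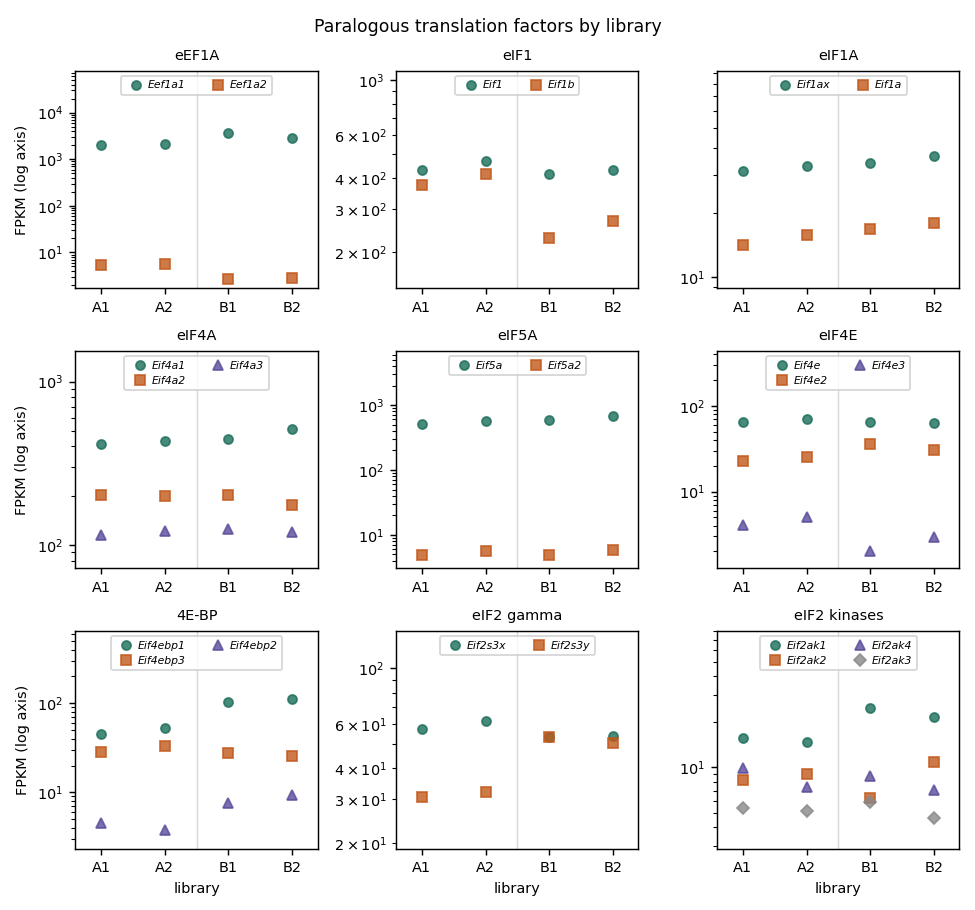
FPKM on log axes of paralogous members in libraries A1, A2, B1 and B2, a panel for each family and a vertical line between the biological replicates. Eef1a1 exceeds Eef1a2 by at least 367-fold in every library, Eif1 and Eif1b part in B, and Eif2s3x and Eif2s3y come together there (ratio 1.002 in B1 and 1.068 in B2).

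The eIF2 subunits, which carry the initiator tRNA, did not have equal mRNA levels. Eif2s2, the beta subunit, had 186, 204, 185 and 191 FPKM, and Eif2s1, the alpha subunit that the stress kinases phosphorylate, had 27.8, 29.3, 40.2 and 36.7 FPKM. The gap between their means was 5.72-fold. Eif2s1 was higher in B without overlap by 0.42, and Eif2s2 overlapped. The gamma subunit is encoded on both sex chromosomes. Eif2s3x had 57.1, 61.4, 53.3 and 53.8 FPKM and Eif2s3y had 30.5, 31.9, 53.1 and 50.3 FPKM in A1, A2, B1 and B2. The X-linked copy was lower in B by a difference of -0.14 and the Y-linked copy was higher by 0.71, so that their ratio was 1.87 and 1.92 in A and 1.002 and 1.068 in B. Ddx3, the other name on the Y chromosome above 0 FPKM, had 7.61, 7.31, 7.41 and 9.83 FPKM, and its replicates overlapped. The sex of the embryos in each replicate is not given in the sources used here, and its part in the Eif2s3y difference was not tested.

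The eIF2B subunits stood closer together than those of eIF2, with means from 15.5 ± 0.59 FPKM (Eif2b3, the gamma subunit) to 44.2 ± 4.38 FPKM (Eif2b1, the alpha subunit). Eif2b1 had 39.7, 42.5, 47.8 and 46.8 FPKM, higher in both libraries of B. Eif2b3 had 15.9, 15.96, 15.9 and 14.4 FPKM, of which B2 was the lowest. The median difference over the 5 subunits was -0.02, and 0.04 without B2.

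The eIF2 kinases were all low, with means from 5.26 to 19.2 FPKM. Eif2ak1, the heme-regulated kinase, had 15.7, 14.8, 24.8 and 21.7 FPKM, and was the highest in every library and higher in B without overlap by 0.577, just short of the threshold of 0.58, while the ratio of B to A in plain FPKM was 1.52. It shares 4359 bases with Ankrd61 on the opposite strand, which was at 0.728 FPKM. Eif2ak2 (PKR), which senses double-stranded RNA, had 8.28, 9.09, 6.26 and 10.8 FPKM. Eif2ak3 (PERK), the kinase of endoplasmic reticulum stress, had 5.39, 5.14, 5.87 and 4.63 FPKM, and Eif2ak4 (GCN2), which senses uncharged tRNA, had 9.88, 7.40, 8.75 and 7.09 FPKM. The replicates of these 3 overlapped. Eif2ak2 and Eif2ak4 could not be put in order, since their ratio was 0.838, 1.23, 0.715 and 1.52 in A1, A2, B1 and B2. Eif2ak2 and Eif2ak4 were both above Eif2ak3 in all 4 libraries, but with ratios as low as 1.07 for Eif2ak2 and 1.44 for Eif2ak4.

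Eif5a, which helps the ribosome through proline stretches and carries the amino acid hypusine, had 507, 566, 591 and 679 FPKM and was higher in B without overlap by 0.24. Eif5a2, its paralogue, had 4.88, 5.61, 4.92 and 5.76 FPKM and overlapped. The ratio of the pair was between 101 and 120 in every library.

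Other genes of translation control were set beside the members as lists, and their counts are to be read against 28.1% of all genes higher in B and 32.0% higher in A without overlap. A list called partners of initiation held 14 of the names, and also took in the elongation factor Eefsec. Of the 14, 3 (Pabpc4, Denr and Tpt1) were higher in B without overlap and 2 (Ddx3x and Eefsec) in A. The median difference of the 14 was -0.01. Of 5 termination and rescue factors 3 were higher in B and 1 in A (median 0.06), and of 6 mitochondrial factors 2 were higher in each (median -0.05). Of 10 genes of mTOR and MNK signalling 1 (Akt1s1) was higher in B and 3 (Mtor, Rheb and Mknk1) in A, with a median of -0.10. Mknk1, a kinase that phosphorylates eIF4E, had 30.6, 26.0, 14.9 and 16.5 FPKM in A1, A2, B1 and B2. Of the 9 genes of the integrated stress response above 1 FPKM, the targets of eIF2 phosphorylation, 5 were higher in A (Atf4, Atf5, Ddit3, Chac1 and Ppp1r15b) and 2 in B (Sesn2 and Ppp1r15a), with a median of -0.24. The counts of small lists depend on single libraries. The partners had 4 in B and 9 in A without B1 and 7 and 3 without B2, and mTOR and MNK signalling had 1 and 6 without B1 and 4 and 4 without B2, while the shares of all genes also rose to the values given above for those settings. The stress response had 4 and 5 without B1 and 2 and 7 without B2. Its median was -0.11 without B1 and -0.35 without B2. The medians of the other lists here were close to 0, and leaving out a library turned the sign of those of the partners (-0.14 without B1, 0.05 without B2) and the mitochondrial factors (-0.14 without B1, 0.02 without B2) and moved that of mTOR and MNK signalling to between -0.16 and -0.03. Atf4, whose protein is made when eIF2 is phosphorylated, had 202, 206, 139 and 180.2 FPKM.

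**Figure D4:**
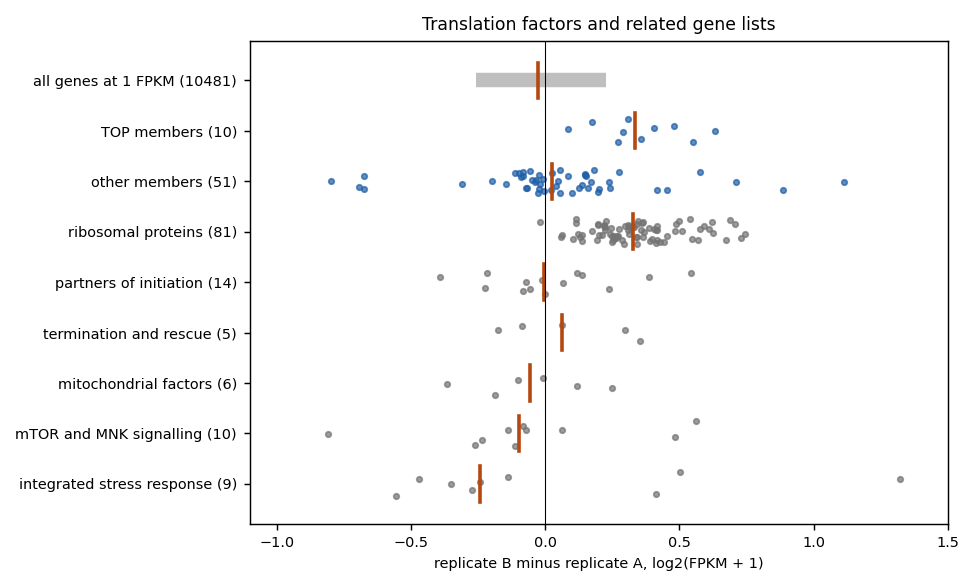
Difference between replicate B and replicate A on the log2(FPKM + 1) scale for members and for lists of related genes, each point a gene above 1 FPKM and each vertical bar the median of its row, with the number of genes in parentheses. The grey bar spans the lower to the upper quartile of all 10481 genes (-0.26 to 0.23). It shows the spread of single genes and is no measure for a median of a list. The median was 0.33 for both the TOP members and the ribosomal proteins and 0.03 for the other members.

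The spread between technical libraries sets how finely members can be compared. The median absolute difference between A1 and A2 was 0.10 over the members and that between B1 and B2 was 0.13 (0.11 and 0.22 over all genes), while between a library of A and a library of B it was 0.15 to 0.22. Differences of a member below about that size cannot be set apart from library spread. For 33 members RefSeq (GRCr8) also lists 118 copies as pseudogenes, 20 of them for Eef1a1, and how the counting treated reads that match several copies is not given in the sources used here. The levels of these members and of near-identical pairs such as Eif1 and Eif1b or Eif2s3x and Eif2s3y are uncertain to that extent.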

How the data were processed

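PolyA-selected mRNA of 2 biological replicates (A and B) was sequenced as 2 technical libraries each, and the labels gave the replicate and the library of every sample. Reads were aligned to rn6 with STAR by the authors, and transcripts were assembled with StringTie, whose table layout the files have. The submitters' processing notes also name cutadapt and HISAT. Tool versions are not given in the sources used here. The FPKM values were used as deposited by the authors, whose methods say that FPKM came from Rsubread and DESeq2. TPM, also deposited, adds up to 1000000 per library. Coverage was deposited too, as the mean read depth of a gene with no scaling for library depth. The tables hold no read counts, so no counting intervals could be given and depth was read from coverage per FPKM.

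Rows of the same gene name were added up (each member had 1 row in each library), and FPKM was averaged over the technical libraries of a replicate, and given as mean ± SD over 2 biological replicates. Differences between B and A were taken on log2(FPKM + 1) of the replicate means. The comparison took genes whose mean reached 1 FPKM. A gene was called when its libraries did not overlap and the difference was at least 1 (2-fold) or at least 0.58 (1.5-fold). No p-value was computed. Paralogue ratios were taken for 17 of 19 planned pairs, since Eif4g1 is not among the names.

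Members named with values in every library were the 10 with the highest mean, both genes of each pair, called members, TOP members, and the highest and lowest subunit of each complex. The members and lists were chosen with earlier results of these data known. Start windows were from RefSeq (GRCr8), and synonyms were used for Eif2s3x. Alternatives were TPM, median-ratio scaling, another pseudocount, no filter on low values, and each library or replicate left out. Python 3.11.15, pandas 2.3.3, numpy 2.4.6 and matplotlib 3.10.9 were used.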

Additional observations from a re-analysis of the deposited data

Results flagged for a closer look

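Values were examined for a library far from the other 3, by the gap to its nearest neighbour as a share of the range (Dixon's criterion for 4 samples). The 4 libraries are pairs of technical libraries and not 4 independent samples. The criterion flags about 1 in 20 by chance among independent samples, so that rate cannot be applied here. Of 80 values examined 7 stood apart. B2 was the library in 4 of them, B1 in 2, A1 in 1 and A2 in 0. The coverage per FPKM of B2 was 6.83, against 22.7 to 24.4 in the others. Eif4a2 was at 176 FPKM in B2, against 199.1 to 200.9 FPKM. Eif2b3 was at 14.4 FPKM in B2, against 15.85 to 15.96 FPKM. The ratio of Eif4a1 to Eif4a3 was 4.28 in B2, against 3.57 to 3.60. Eif3k was at 177 FPKM in B1, against 144 to 149 FPKM. The ratio of Eif2ak1 to Eif2ak2 was 3.96 in B1, against 1.63 to 2.01. Eif4g3 was at 76.9 FPKM in A1, against 53.5 to 56.4 FPKM.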

How the results depend on the processing

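Of 133 alternatives over 26 results, 36 leave a replicate of 2 out of a mean, which cannot move it by more than the SD, and 17 take the highest row of names that have 1 row, which changes nothing. Of the other 80, 68 moved by less than the replicate spread (counts by up to 1.5 times), 11 by more and 1 turned in direction. The log2 ratio of Eif2s3x to Eif2s3y, 0.49 over both replicates, was 0.93 in A and 0.05 in B. The counts without overlap and at 1.5-fold under other settings were chosen after seeing the data. The number of members called at 2-fold was 1, and was 8 at 0.58, 2 with a pseudocount of 0.1, and 0 to 2 when a library was left out (0 without A1, 2 without B1). The median member difference of 0.08 was 0.035 in TPM, where the median over all genes was also lower, at -0.07. The TOP median of 0.33 was 0.28 in TPM, 0.36 with median-ratio scaling, and 0.28 to 0.42 when a library was left out. With 1 FPKM added to both genes the log2 ratios became 6.54 for Eif5a to Eif5a2, -3.40 for Eif4ebp2 to Eif4ebp1, and 0.62 for Eif2ak2 to Eif2ak3, since the added value pulls low genes together. Without B2 the log2 ratio of Eif2ak2 to Eif2ak3 was 0.41 and that of Eif2ak2 to Eif2ak4 turned to -0.24 from 0.06, since 1 of the 2 libraries of B then stood alone. Without B2 the members higher in B without overlap numbered 40 in place of 24, and those 1.5-fold higher in B 7 in place of 4. Those higher in A without overlap numbered 15 in place of 10 without B2. Without B1 the members outside the TOP list that were higher in A numbered 21 in place of 10. No paired analysis was possible because there was 1 condition and the result came from no test. The tables hold no read counts, and the shallow depth of B2 limits the low members most. With n = 2 an SD is itself uncertain.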
